A study of Mus musculus with 6 samples.

Results

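Hox genes encode homeodomain transcription factors that lie in 4 clusters, HoxA, HoxB, HoxC and HoxD, and are numbered by paralog group from 1 to 13 along each cluster. In the embryo, low numbers are used toward the head and high numbers toward the tail, and groups 9 to 13 are known for patterning the limb from the shoulder or hip outward to the digits. Many limb and connective tissue cells keep a positional Hox pattern after birth, and muscle as a whole is a mixture of fibres with such cells.

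The members described here were every entry of the deposited gene table whose symbol is Hoxa, Hoxb, Hoxc or Hoxd followed by a number and nothing else. This gave 39 of 23367 entries, with 11 in HoxA, 10 in HoxB, 9 in HoxC and 9 in HoxD. The polyadenylated RNA came from the gastrocnemius, a muscle of the hindlimb calf, of wild-type FVB mice in 6 libraries from 5 stages. E18.5 was 1 library from a pool of male and female fetuses, PN2 was 1 library from a pool of male pups, PN14 had 2 libraries from 1 male each, and PN28 and adult (22 weeks) had 1 library from 1 male each. Only PN14 was replicated, each library was run on a lane of its own, and the E18.5 pool alone held females, so lane, mouse and stage cannot be told apart at the other 4 stages. In bulk tissue, fewer cells of a type and less RNA per cell cannot be told apart either.

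The libraries held 125402932 to 157868359 counts on genes, and the Hox genes stood at 187 to 218 CPM in total. Levels are given as FPKM divided by the TMM factor of the library (scaled FPKM), which ranged from 1.45 at E18.5 and PN2 to 0.714 in the adult. FPKM is per gene length and can be compared between genes, and the TMM factor sets the typical gene to the same level in every library. Without it, on library size alone, the typical gene (median) had a log2 fold change of -0.66 between PN2 and PN14 and of -1.08 between E18.5 and adult, and with it -0.01 and -0.05. The main Hox fold changes whose direction or call rests on this scaling are given with both values. The labelled tissue was checked against known marker genes. The summed scaled FPKM of 7 myofiber genes was 22300 at E18.5, 24500 at PN2 and 100000 to 165000 from PN14 on. The hindlimb factor Tbx4 was at 1.29 to 5.16 scaled FPKM in every library, while the forelimb factor Tbx5 reached no more than 0.0826. The other hindlimb factor listed, Pitx1, was at 5.32 at E18.5 and 2.74 at PN2, but at 0.309 or less from PN14 on.

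The DNA-binding helix of the homeodomain differs between many of the paralog groups. The codons shown are those of this recognition helix in the members on which the results turn, read from the coding transcripts of GENCODE M1 (mm9). The capitals mark the 4 codons after the stretch whose residues are shared, where groups can differ.
Hoxc10: tggtttcaaaatcgcagaATGAAACTCAAG
Hoxa10: tggtttcagaatcgcaggATGAAACTGAAG
Hoxd10: tggtttcaaaaccgccgaATGAAACTCAAG
Hoxd9: tggttccagaaccgtaggATGAAAATGAAA
Hoxd8: tggttccagaacaggagaATGAAATGGAAA
Hoxd11: tggttccagaatcgcaggATGAAAGAAAAG
Hoxd12: tggttccagaaccggcgtATGAAGAAGAAG
Hoxd13: tggtttcagaatcgaaggGTGAAGGACAAG
Hoxa13: tggttccagaacaggaggGTCAAAGAGAAA
The 10 codons of Hoxa10, Hoxc10 and Hoxd10 encode the same residues with different bases in some codons. Hoxd8 shares its residues here with 14 other members of groups 4 to 8, and Hoxd9 with the other 3 members of group 9. Hoxd13 differs from Hoxa13, Hoxb13 and Hoxc13, which encode the same residues as each other.

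In mm9, HoxA lies on chromosome 6 from 52105366 to 52210874 on the minus strand. HoxB lies on chromosome 11 from 96055630 to 96229570, HoxC on chromosome 15 from 102751534 to 102867274 and HoxD on chromosome 2 from 74506367 to 74603200, all on the plus strand. The counts cover whole genes, and 9 members share exonic sequence with another Hox gene or with a Hox antisense gene in GENCODE M1, namely Hoxa2, Hoxa3, Hoxa11, Hoxb2, Hoxb3, Hoxb7, Hoxb8, Hoxd3 and Hoxd4. Their reads could be split between the overlapping genes, and their values are uncertain to that extent. Hoxc9, Hoxc10, Hoxa13 and Hoxd8 to Hoxd13 shared no stretch of 100 bases, about the length of a read, with another Hox gene. Of these, Hoxc10, Hoxd10 and Hoxd11 overlapped read-through gene models over 8.7%, 3.9% and 8.4% of their exonic bases.

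The gastrocnemius kept a broad Hox pattern centred on groups 8 to 10, with Hoxc10 the highest member in all 6 libraries. Of the 39 members, 21 reached 1 FPKM in at least 1 library, 12 did so in every library and 4 reached 10 FPKM. These 4 were Hoxc10, Hoxd8, Hoxa10 and Hoxd9. Hoxb1, used in the hindbrain, and Hoxb13, used in the tail and prostate, had 0 counts in every library, where a count of 0 allows for up to 0.0131 to 0.0295 normalized CPM. Hoxd1, at the low end of HoxD, was nearly silent as well, with 15 counts at E18.5, 3 at PN2 and 0 or 1 in each later library. Values in each library are given for members that reached 1 FPKM or were called in a comparison, 24 in all, and the other 15 stayed at 0.99 FPKM or less.

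**Figure D1:**
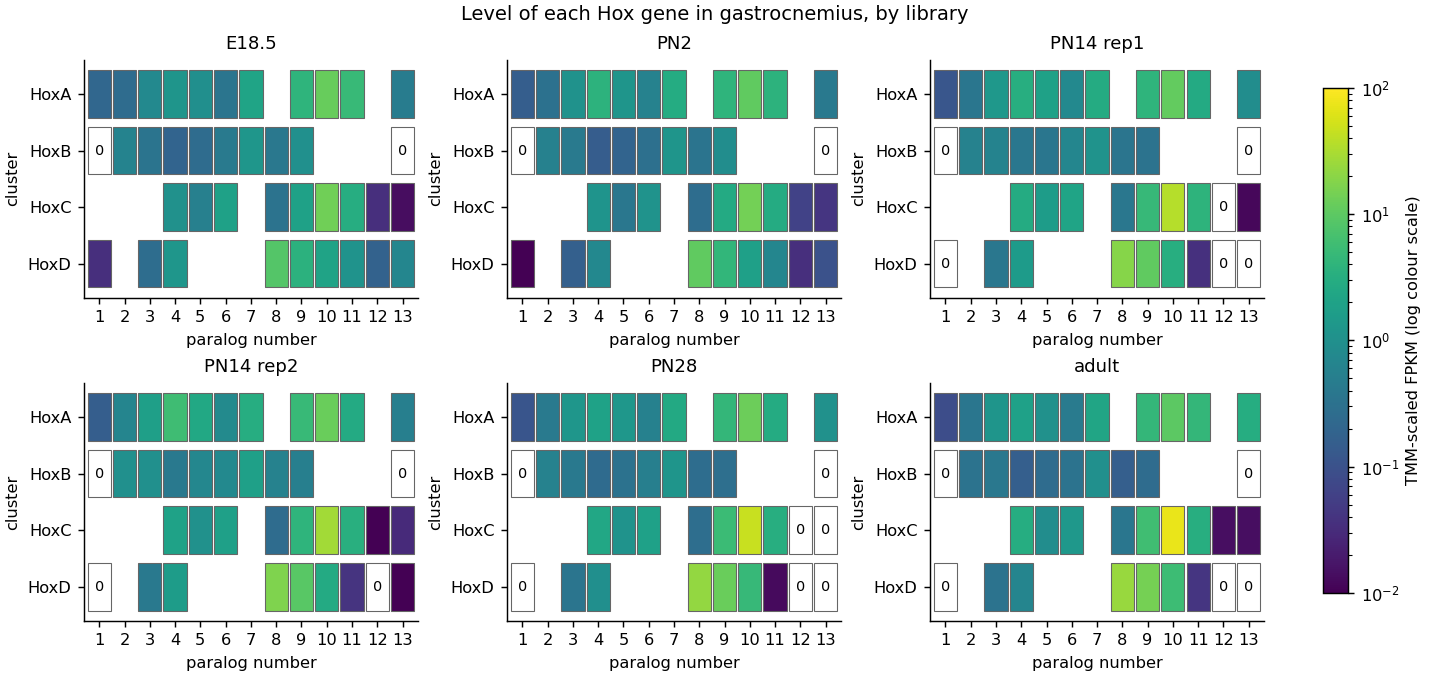
Level of each Hox gene in each library, as TMM-scaled FPKM on a log colour scale, with the cluster as row and the paralog number as column. Empty positions have no gene in the mouse, and a 0 marks a deposited FPKM of 0.00. The brightest tile in every library is Hoxc10, and Hoxd12 and Hoxd13 go from coloured tiles at E18.5 to 0 in the adult.

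Taken by cluster, HoxC took a larger and HoxA a smaller part of the Hox pool in the adult than at E18.5, and for HoxC this was Hoxc10 alone. HoxA gave 37.4% of the summed Hox FPKM at E18.5, 38.8% at PN2, 24.4% in PN14 replicate 1 and 31.3% in replicate 2, 21.8% at PN28 and 17.5% in the adult. HoxC gave 31.6%, 30.7%, 43.2%, 35.8%, 45.0% and 53.5% in the same order. The adult was the highest library for HoxC and the lowest for HoxA, and the PN14 replicates differed from each other by several points. HoxC without Hoxc10 gave 12.4% at E18.5 and 8.94% in the adult. HoxB, whose members were low in every library, gave 6.22% at E18.5, 3.72% and 5.95% at PN14 and 1.74% in the adult. HoxD stayed between 24.8% and 30.4%. A share is taken within a library and does not depend on scaling between libraries.

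Paralog groups 9 to 13 together gave 67.4% of the Hox FPKM at E18.5, 62.5% at PN2, 64.8% and 60.4% at PN14, 69.3% at PN28 and 75.4% at 22 weeks. The adult stood above E18.5 only with Hoxc10 counted, which alone went from 19.1% to 44.6% of the Hox FPKM. Without Hoxc10 the share of the same groups was 59.7% at E18.5, 53.6% at PN2 and 49.6% and 47.5% at PN14. It was then 53.3% at PN28 and 55.6% in the adult, so the rise from PN14 on was not Hoxc10 alone. The Hox pool was concentrated in few genes, with 11 members making up 80% of it at E18.5 and 6 in the adult. Group 10 was the largest in every library, at 27.5 summed scaled FPKM at E18.5 and 89.6 in the adult. Groups 11, 12 and 13 differed among themselves, at 9.27, 0.207 and 1.14 at E18.5 and 7.69, 0.014 and 3.0 in the adult.

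**Figure D2:**
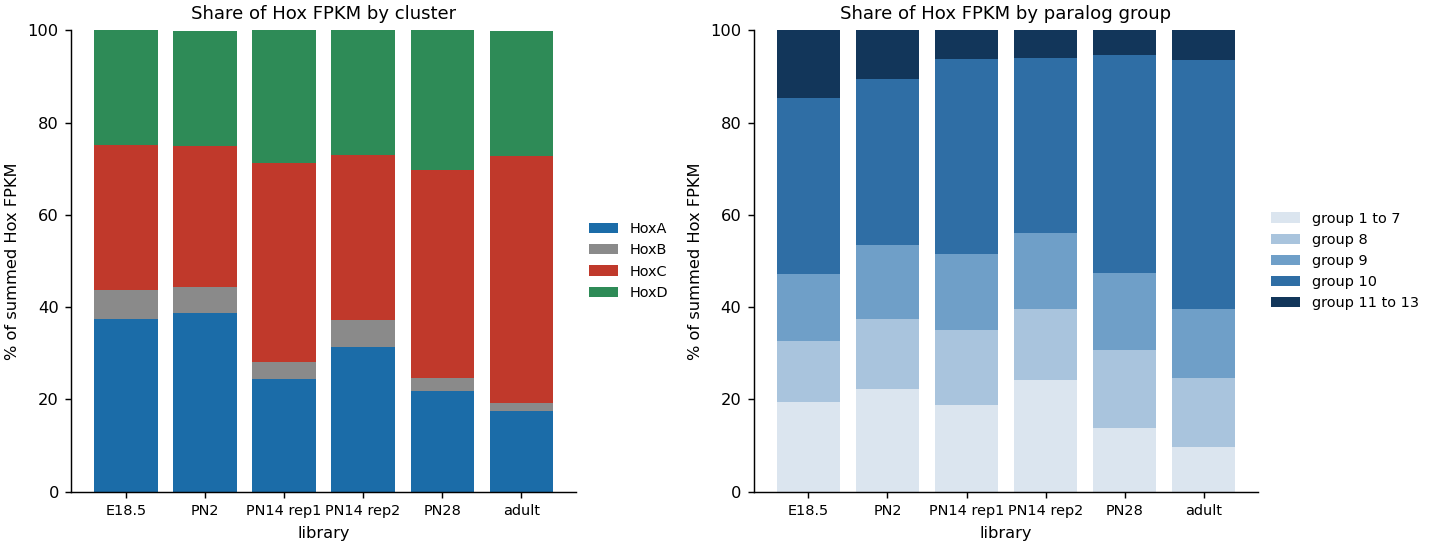
Share of the summed Hox FPKM in each library by cluster (left) and by paralog group (right), in percent. HoxC grows from 31.6% at E18.5 to 53.5% in the adult while HoxA shrinks from 37.4% to 17.5%, and group 10 takes the largest share in every library.

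The test across stages covered 16882 genes, 37 of the members among them, and called a gene at an adjusted p under 0.05 (edgeR's quasi-likelihood test, Benjamini-Hochberg) where the log2 fold change also reached 1 in either direction. The spread came from the PN14 pair, so the other stages were assumed to vary as these 2 mice did. In all, 14 of the 37 members (37.8%) were called in at least 1 of the 5 comparisons, against 48.3% of all genes tested.

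Hox expression did not pass the test for any member in the days around birth. From E18.5 to PN2, 0 of 37 members were called, against 0.0296% of all genes tested, and 3 members had an unadjusted p under 0.05 (Hoxa4, Hoxd12 and Hoxd13). DESeq2's Wald test also called 0, with 1 member at an unadjusted p under 0.05, and edgeR's exact test called 1, Hoxd13. Counted by size alone, among genes with at least 1 CPM in either stage, 2 of 23 members were at least 2-fold apart, against 3.44% of all genes. These were Hoxa4, at 1.23 scaled FPKM at E18.5 and 3.72 at PN2, and Hoxd13, at 0.675 and 0.103.

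Between PN2 and PN14 the distal end of HoxD dropped to almost nothing while Hoxc10, Hoxd9 and 3 members of groups 4 and 5 rose under TMM scaling. These 5 were still higher at PN14 on library size alone, but none was then called. Higher at PN14 were 5 members (Hoxb4, Hoxc5, Hoxc10, Hoxd4 and Hoxd9), or 13.5% of those tested, against 11.8% of all genes. Lower were 3 members (Hoxd11, Hoxd12 and Hoxd13), or 8.11%, against 11.2% of all genes. Both shares were near those of all genes. On library size alone, where the typical gene was lower at PN14 too, the split was 0 higher and 6 lower. The median log2 fold change of the 37 members was 0.50, also with Hoxd12 at its bound, beside -0.01 for all genes, and on library size alone it was -0.13 beside -0.66. By size alone 7 of 25 members were at least 2-fold apart, against 27% of all genes.

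From E18.5 to adult the 5′ end of HoxD and Hoxb9 fell, and members of groups 8 to 10, Hoxc4 and Hoxa13 rose under TMM scaling. The members called higher were 7 (Hoxa13, Hoxc4, Hoxc9, Hoxc10, Hoxd8, Hoxd9 and Hoxd10), or 18.9%, against 21.4% of all genes. The members called lower were 4 (Hoxb9, Hoxd11, Hoxd12 and Hoxd13), or 10.8%, against 23.6% of all genes. On library size alone, where the typical gene was lower in the adult too, 2 were called higher (Hoxa13 and Hoxc10) and 12 lower. The median of the members was 0.06 beside -0.05 for all genes, or -0.97 beside -1.08 on library size alone. By size alone 11 of 24 members were at least 2-fold apart, against 49.6% of all genes. This comparison and that of PN2 with PN14 use different libraries but come from 1 fit, with the same spread and the same TMM scaling. Hoxc10, Hoxd9, Hoxd11, Hoxd12 and Hoxd13 were called in both, each in 1 direction. On library size alone Hoxd9 was called in neither, and Hoxc10 only from E18.5 to adult.

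**Figure D3:**
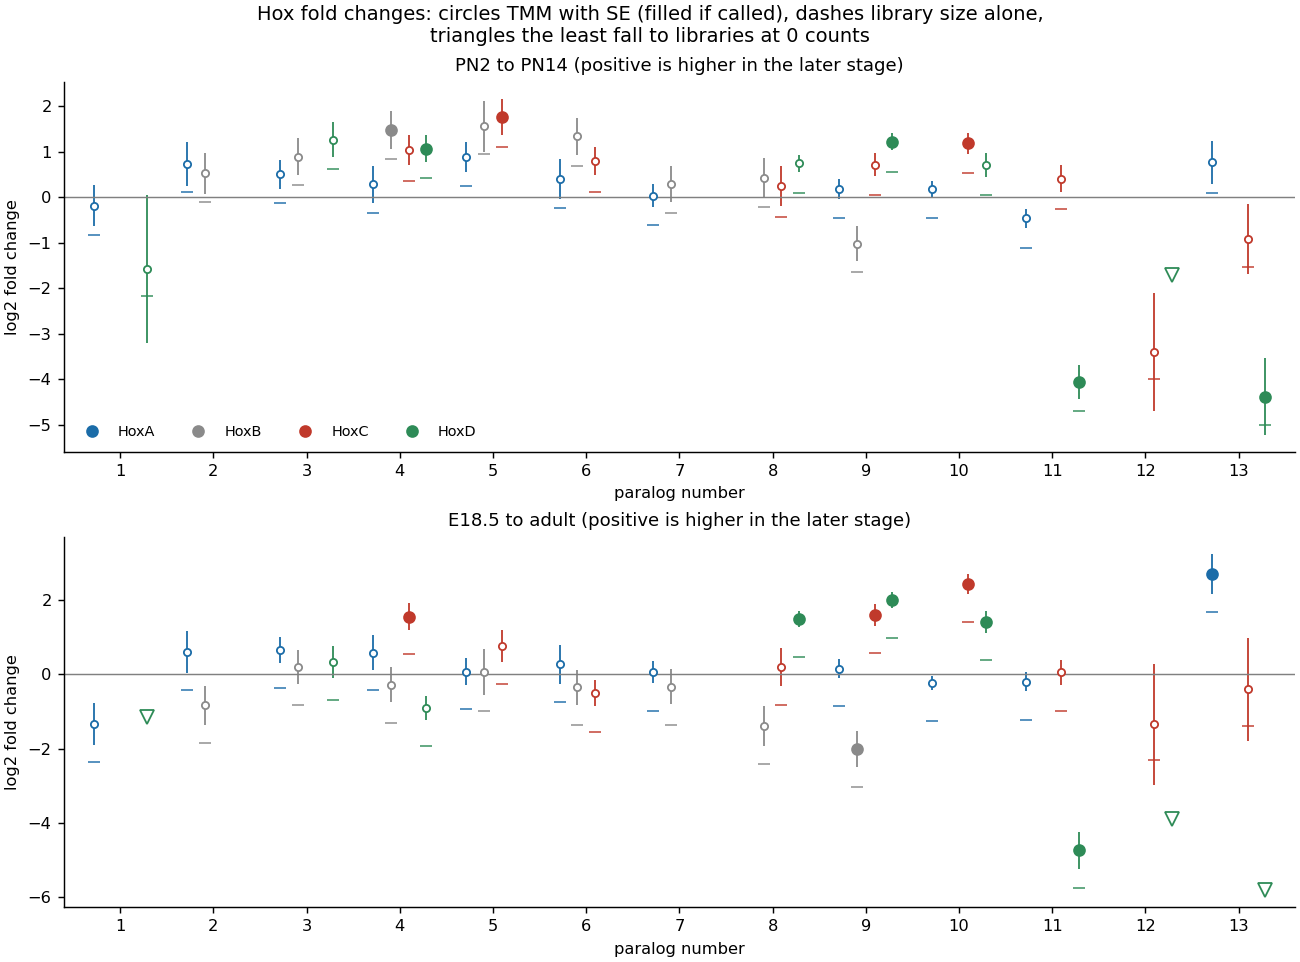
Log2 fold change of each tested Hox gene by paralog number, from PN2 to PN14 (top) and from E18.5 to adult (bottom), coloured by cluster. Circles are the TMM values with their SE, filled where called, dashes are the values on library size alone, and triangles show the least fall that 0 counts allow. Hoxd11, Hoxd12 and Hoxd13 lie well below 0 in both panels, while Hoxc10 and Hoxd9 lie above it on either scaling.

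Hoxc10, a group 10 gene known for hindlimb and lumbar identity, had the largest fold change from E18.5 to adult among the 4 members that reached 10 FPKM. Its scaled FPKM was 13.8 at E18.5, 14.1 at PN2, 36.1 in PN14 replicate 1 and 27.8 in replicate 2, 45.8 at PN28 and 74.1 in the adult. The libraries before PN14 lay below every later one, and the adult was the highest. The log2 fold change was 1.18 (SE 0.235, adjusted p = 0.017) from PN2 to PN14 and 2.43 (SE 0.270, adjusted p = 0.0018) from E18.5 to adult. On library size alone they were 0.52, which was not called, and 1.40, which was. Its group 10 paralogs encode the same helix residues, as shown above, but differed in course. Hoxa10, known with them for patterning the thigh, was at 11.6, 10.4, 11.1, 12.3, 12.5 and 9.99 scaled FPKM in the same order of libraries, with a log2 fold change of -0.23 (SE 0.199, adjusted p = 0.352) from E18.5 to adult, or -1.26 and called lower on library size alone. Hoxd10 was at 2.09, 1.79, 3.21, 2.65, 4.76 and 5.54, with a log2 fold change of 1.40 (SE 0.296, adjusted p = 0.0103), or 0.38 and not called on library size alone. Hoxa10 was thus close to Hoxc10 in level at E18.5 and far below it in the adult.

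Hoxd8 and Hoxd9, neighbours in the middle of HoxD, were the other abundant members with higher levels in later libraries. Hoxd8 was at 8.65 scaled FPKM at E18.5, 10.6 at PN2, 18.8 and 16.6 at PN14, 22.1 at PN28 and 24.3 at 22 weeks. Its log2 fold change from E18.5 to adult was 1.49 (SE 0.209, adjusted p = 0.00287), and 0.47 without a call on library size alone. From PN2 to PN14 it was 0.74 (SE 0.183, adjusted p = 0.0303), below the 2-fold limit. Hoxd9 was at 3.59, 4.23, 10.5, 9.16, 12.3 and 14.4. Its log2 fold change was 1.22 (SE 0.196, adjusted p = 0.0103) from PN2 to PN14 and 2.00 (SE 0.221, adjusted p = 0.00178) from E18.5 to adult, or 0.56 and 0.97 on library size alone, neither of them called. For both genes the E18.5 and PN2 libraries lay below all 4 later ones.

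Group 9 held members that rose, fell or did neither. Hoxc9, next to Hoxc10 in its cluster, was at 1.96 scaled FPKM at E18.5, 2.70 at PN2, 4.84 and 4.0 at PN14, 5.29 at PN28 and 5.94 at 22 weeks, with a log2 fold change from E18.5 to adult of 1.60 (SE 0.288, adjusted p = 0.00614), or 0.57 without a call on library size alone. Hoxb9 went the other way, at 0.998, 0.868, 0.333, 0.517, 0.280 and 0.252. It fell by 2.00 on the log2 scale (SE 0.478, adjusted p = 0.0156), and by 3.03 on library size alone. Hoxa9, at 3.95, 3.97, 3.99, 4.99, 4.45 and 4.44, had a log2 fold change of 0.16 (SE 0.249, adjusted p = 0.601), which turned to -0.86 on library size alone.

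Hoxd11, Hoxd12 and Hoxd13, which lie side by side at the 5′ end of HoxD and are known for patterning the lower leg and the digits, were present in the fetal library and at or near 0 from PN14 on. Hoxd11 had 963 counts in the E18.5 library, 573 at PN2, 14 and 25 at PN14, 8 at PN28 and 16 at 22 weeks, or 1.12, 0.675, 0.0357, 0.0397, 0.0127 and 0.042 scaled FPKM. Every library from PN14 on lay far below both earlier ones. Its log2 fold change was -4.06 (SE 0.367, adjusted p = 0.00389) from PN2 to PN14 and -4.73 (SE 0.495, adjusted p = 0.00158) from E18.5 to adult, and was called on library size alone in both.

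Hoxd12 had 100 counts at E18.5, 21 at PN2 and then 0 in each of the 4 later libraries. With 3 counts per library as the floor, its level was at least 3.25-fold lower at PN14 than at PN2 (adjusted p = 0.0268) and at least 14.8-fold lower in the adult than at E18.5 (adjusted p = 0.00915). DESeq2's Wald test gave no adjusted p for the first and did not call the second (adjusted p = 0.0734). Hoxd13 had 376 counts at E18.5, 58 at PN2, 0 and 3 at PN14, 1 at PN28 and 0 at 22 weeks. The ratio of PN2 to PN14 was 21.8, with a 95% exact counting interval of 7.11 to 109 (adjusted p = 0.0157), and the adult was at least 55.7-fold lower than E18.5 (adjusted p = 0.00286). Intervals and floors cover counting error only. All 3 genes were already lower at PN2 than at E18.5, and this first step was not called for any of them in edgeR's quasi-likelihood test.

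Markers of some other tissues were also lower in later libraries, as were other lists given further below, and their part in the result was not tested. Of 7 bone and cartilage markers 6 were called lower from PN2 to PN14 and 7 from E18.5 to adult, and their summed scaled FPKM was 81.9 at E18.5, 44.1 at PN2, 6.49 and 6.11 at PN14, 5.57 at PN28 and 1.60 at 22 weeks. Ibsp, a bone matrix protein, had 10118 and 10633 counts at E18.5 and PN2, 1 and 0 at PN14 and 0 at PN28 and in the adult, and Bglap (osteocalcin) was also at 0 in the adult. Of 5 keratinocyte markers 2 were called lower from PN2 to PN14 and 5 from E18.5 to adult, summing to 19.9 at E18.5, 2.41 at PN2, 2.20 and 2.42 at PN14, 2.11 at PN28 and 1.29 at 22 weeks, where Krt1, Krt5, Krt14 and Krt15 were at 0. Most of the later sum was Krt10. The keratinocyte sum fell mainly between E18.5 and PN2, and Krt1, Krt5, Krt14 and Krt15 were each lower again at PN14. Of 4 tendon markers 1 was called lower from PN2 to PN14, and from E18.5 to adult 1 was called higher and 2 lower. Among all genes 11.2% were called lower from PN2 to PN14. From E18.5 to adult 23.6% of them were called lower and 21.4% higher.

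**Figure D4:**
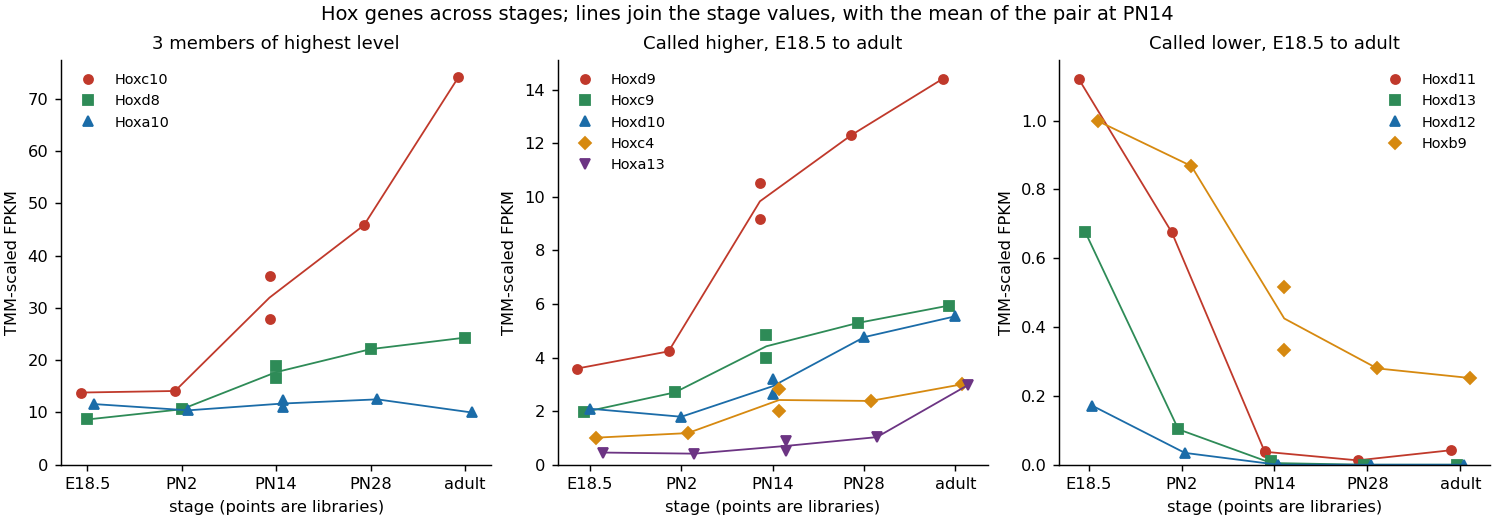
TMM-scaled FPKM of selected Hox genes by stage, on a linear axis, with 1 point for each library and lines through the stage values (the mean of the pair at PN14). Hoxc10 climbs from 13.8 to 74.1 while Hoxa10 stays between 9.99 and 12.5, and Hoxd11, Hoxd12 and Hoxd13 reach the axis by PN14.

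Hoxa13, the HoxA member of the digit group, took the opposite course to Hoxd13. It had 131 counts at E18.5, 117 at PN2, 118 and 96 at PN14, 151 at PN28 and 382 at 22 weeks. In scaled FPKM these were 0.454, 0.413, 0.892, 0.507, 1.03 and 2.98, so that the adult alone stood apart. The log2 fold change from E18.5 to adult was 2.71 (SE 0.534, adjusted p = 0.0081), and 1.69, still called, on library size alone. It rests on 1 adult mouse. Hoxc13, a gene of hair and nail, had 1 to 23 counts and was not called in any comparison. Hoxc12, next to it, had 0 to 11 counts and was not called either, except as lower from PN2 to PN14 on library size alone and by edgeR's exact test.

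Group 11 held, beside Hoxd11, the abundant Hoxa11 and Hoxc11, which pattern the lower leg. Hoxa11 was at 5.03 scaled FPKM at E18.5, 3.75 at PN2, 2.69 and 2.73 at PN14, 2.80 at PN28 and 4.40 at 22 weeks, lowest in the middle stages. Its log2 fold change was -0.47 (SE 0.210, adjusted p = 0.137) from PN2 to PN14 and -0.19 (SE 0.246, adjusted p = 0.536) from E18.5 to adult, and on library size alone both were called lower, at -1.12 and -1.22. The antisense gene Hoxa11as covers 38.6% of its exonic bases on the opposite strand, and without stranded counts their reads cannot be told apart there. Hoxa11as itself was at 2.55, 1.99, 2.28, 2.21, 2.15 and 3.80 scaled FPKM and was not called. Hoxc11 was at 3.13, 2.76, 3.90, 3.37, 3.26 and 3.25, with a log2 fold change from E18.5 to adult of 0.06 (SE 0.338, adjusted p = 0.899), or -0.97 on library size alone.

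Groups 1 to 8 gave 23 members, of which 22 were tested. From PN2 to PN14 edgeR's quasi-likelihood test called 3 of them higher and 0 lower, against 11.8% and 11.2% of all genes, while library size alone gave 0 and 0. From E18.5 to adult it called 2 higher and 0 lower, against 21.4% and 23.6% of all genes. Library size alone, where the typical gene was lower too, gave 0 higher and 6 lower. Hoxc5 was at 0.530 scaled FPKM at E18.5, 0.379 at PN2, 1.56 and 1.02 at PN14, 1.15 at PN28 and 0.897 at 22 weeks, a log2 fold change of 1.76 from PN2 to PN14 (SE 0.396, adjusted p = 0.0236), or 1.09 without a call on library size alone. Hoxc4 was at 1.01, 1.18, 2.81, 2.02, 2.38 and 3.0, with 1.56 from E18.5 to adult (SE 0.367, adjusted p = 0.0148), or 0.54 without a call on library size alone. Both genes belong to the low-numbered end of HoxC, and on the scaled FPKM their E18.5 and PN2 libraries lay below all later ones. For Hoxc5 this rests on the scaling, since its log2 fold change from E18.5 to adult was 0.77 with TMM, not called, and -0.25 on library size alone.

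Group 4 held 3 called members. Hoxb4 had 107 counts at E18.5, 82 at PN2, 104 and 156 at PN14, 72 at PN28 and 39 at 22 weeks, and its scaled FPKM was highest at PN14, at 0.392 and 0.407, with a log2 fold change of 1.48 from PN2 (SE 0.414, adjusted p = 0.0423). Hoxd4 was at 1.25, 0.737, 1.52, 1.55, 0.955 and 0.659 scaled FPKM, 1.06 higher on the log2 scale at PN14 than at PN2 (SE 0.296, adjusted p = 0.0423). Hoxd4 shares 67.4% of its exonic bases with Hoxd3 models, and DESeq2's Wald test called neither Hoxb4 nor Hoxd4. On library size alone the log2 fold change was 0.84 for Hoxb4 and 0.41 for Hoxd4, neither of them called.

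Hoxa4 varied widely between libraries without being called. Its scaled FPKM was 1.23 at E18.5, 3.72 at PN2, 3.19 and 5.80 at PN14, 2.00 at PN28 and 1.86 at 22 weeks. The PN14 replicates alone spanned a range that held the PN2 value. The other named members of groups 3 to 7 had these ranges of scaled FPKM over the libraries, Hoxa3 at 0.771 to 1.74, Hoxa5 at 0.964 to 2.52, Hoxa7 at 2.18 to 3.13, Hoxb7 at 0.995 to 1.78 and Hoxc6 at 1.14 to 2.14. None of these 5 was called in any comparison under TMM scaling, Hoxc6 was called lower from E18.5 to adult on library size alone, and the direction of all but Hoxb7 and Hoxc6 from E18.5 to adult depended on the scaling.

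After PN14 no member passed the test. From PN14 to PN28 0 of 37 were called, against 0.0178% of all genes, with 2 at an unadjusted p under 0.05 (Hoxa4 and Hoxd10), and 0 were called by the Wald test of DESeq2 or the exact test of edgeR. By size alone 1 of 25 was at least 2-fold apart (Hoxa4, lower at PN28), against 3.3% of all genes. Without PN14 replicate 1 there were 4 (Hoxa4, Hoxb3, Hoxb5 and Hoxb8, all lower at PN28), and without replicate 2 there were 0. From PN28 to adult 0 of 37 were called, against 0.521% of all genes, with 3 at an unadjusted p under 0.05 (Hoxa11, Hoxa13 and Hoxc10), and the other tools again called 0. Hoxa13 alone of 21 members was at least 2-fold apart by size, against 10.2% of all genes.

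The PN14 replicates differed most clearly in HoxB and HoxC. Among the 32 members with at least 10 counts in both, replicate 2 was higher in 8 of 8 HoxB genes, with a median log2 ratio of 0.62, and in 10 of 11 HoxA genes, with a median of 0.23. In HoxC it was lower in 7 of 7 genes, with a median of -0.38, and in HoxD 3 of 6 were higher. By paralog number, replicate 2 was higher in 16 of 21 members of groups 1 to 8 (median 0.19) and in 5 of 11 of groups 9 to 13 (median -0.20). The extremes were Hoxb5 at 0.86, Hoxa4 at 0.85 and Hoxa13 at -0.73. No member was 2-fold apart, 0 of 27 counted, against 2.74% of all genes. The pair is 1 mouse against 1 mouse, so this is a description without a test.

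**Figure D5:**
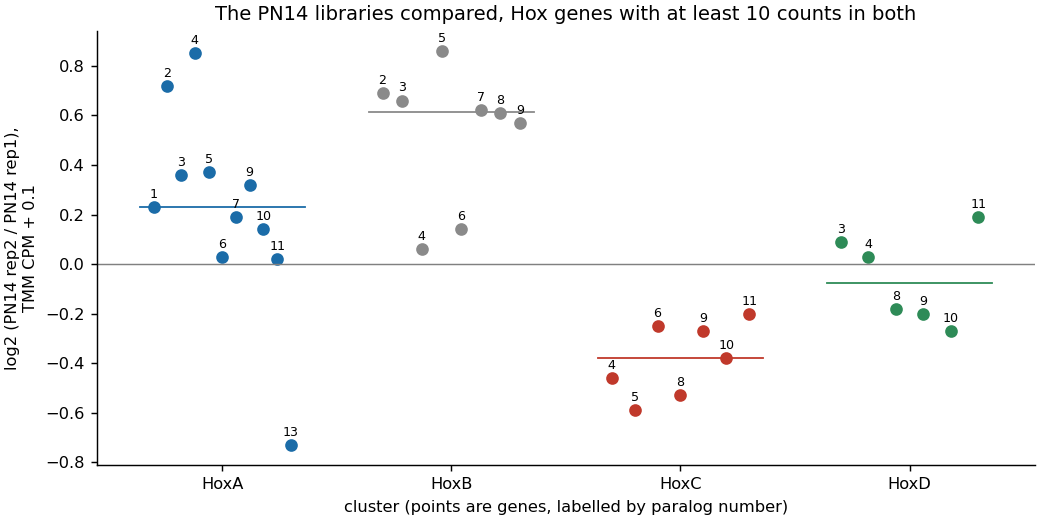
Log2 ratio of PN14 replicate 2 to replicate 1 (normalized CPM plus 0.1) for the 32 Hox genes with at least 10 counts in both, by cluster, with the paralog number beside each point and the cluster median as a line. All 8 HoxB genes lie above 0 and all 7 HoxC genes below it.

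Cell type markers differed between these replicates too, and their part in the Hox difference was not tested. The median log2 ratio of replicate 2 to replicate 1 was 1.5 over 4 Schwann cell markers and 1.07 over 4 proliferation genes, all 8 higher in replicate 2. It was 0.37 over 5 satellite cell markers, 0.31 over 5 endothelial markers, 0.19 over 11 fibroblast markers and 0.12 over 3 macrophage markers. Myofiber markers gave -0.50, lower in 7 of 7, tendon markers -0.33, lower in 4 of 4, and all genes 0.00.

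Across the stages the same lists moved as follows, set beside the Hox values without a test of their relation. From E18.5 to adult the fibroblast and connective tissue list had 9 of 11 genes called lower and 1 higher, its summed scaled FPKM going from 4960 to 753. Satellite cell markers were lower in 5 of 5 (59.3 to 12.7) and proliferation genes in 4 of 4 (76.4 to 0.434). Schwann cell markers were higher in 2 of 4, neuron markers lower in 2 of 4 with sums of 0.358 or less, and macrophage markers lower in 1 of 3. Of 5 endothelial markers 0 were called by edgeR's quasi-likelihood test, while all 5 were lower on library size alone, where the typical gene was lower too. Myofiber markers were higher in 2 of 7 (Myh1 and Myh4). Among all genes 23.6% were called lower and 21.4% higher from E18.5 to adult.

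Hox proteins bind DNA together with TALE homeodomain partners of the Pbx, Meis and Pknox families, and all 11 TALE genes of the list were tested. From E18.5 to adult 6 were called lower (Meis1, Meis2, Meis3, Pbx2, Pbx3 and Tgif2) and 1 higher (Pknox2), against 23.6% and 21.4% of all genes. The list median was -1.42 beside -0.05 for all genes. Library size alone, where the typical gene was lower too, gave 10 lower and 0 higher. From PN2 to PN14 2 were lower (Meis2 and Tgif2), against 11.2% of all genes. On library size alone 10 were, again with the typical gene lower. Meis1, the partner known from the hip end of the limb, was at 2.55 scaled FPKM at E18.5, 1.87 at PN2, 1.16 and 1.13 at PN14, 1.10 at PN28 and 0.953 at 22 weeks (log2 fold change E18.5 to adult -1.42, SE 0.289, adjusted p = 0.00924). Pknox2 went from 7.35 to 19.9, a log2 fold change of 1.44 (SE 0.301, adjusted p = 0.01), or 0.41 without a call on library size alone.

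Of 20 limb patterning factors, 8 were called lower and 1 higher from PN2 to PN14, against 11.2% and 11.8% of all genes. From E18.5 to adult 13 were lower and 1 higher, against 23.6% and 21.4% of all genes, with a list median of -2.04. Library size alone, where the typical gene was lower too, gave 12 lower and 0 higher from PN2 to PN14. From E18.5 to adult it gave 16 lower and 0 higher, again with the typical gene lower. Pitx1, which gives the hindlimb its identity, was at 5.32 scaled FPKM at E18.5, 2.74 at PN2, 0.309 and 0.308 at PN14, 0.217 at PN28 and 0.168 at 22 weeks. Its log2 fold change was -3.17 (SE 0.263, adjusted p = 0.00336) from PN2 to PN14. Hoxd11, Hoxd12 and Hoxd13 were also called lower in that interval, but Hoxd12 had gone from 100 to 21 counts by PN2. Hoxd13 had gone from 376 to 58 counts by then. Both members of the hindlimb list, Pitx1 and Tbx4, and Tbx5, the forelimb list, were lower in the adult than at E18.5. Tbx15, a skeletal and muscle fibre factor, was the only one called higher from E18.5 to adult, from 39.7 to 134 (log2 fold change 1.76, SE 0.323, adjusted p = 0.00643), or 0.74 without a call on library size alone.

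The 5 Cdx and Evx genes, upstream regulators and cluster neighbours of Hox genes in the embryo, were at or near 0, with a summed FPKM of 0.03 or less in every library, and none was kept for the test. Among 8 noncoding genes of the clusters, 6 microRNA entries were at 0 in every library, and Hoxa11as and Hotair were tested and not called under TMM scaling. Hotair, a long noncoding RNA of HoxC beside Hoxc11, was at 0.909 scaled FPKM at E18.5, 0.999 at PN2, 1.40 and 1.35 at PN14, 0.968 at PN28 and 0.687 at 22 weeks (log2 fold change E18.5 to adult -0.39, SE 0.348, adjusted p = 0.370), and on library size alone it was called lower, at -1.42.

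Trithorax and Polycomb proteins hold Hox genes in their active or silent state, and all 16 listed genes were tested. From PN2 to PN14 1 was called higher (Cbx7) and 1 lower (Ezh2), against 11.8% and 11.2% of all genes. Library size alone, where the typical gene was lower too, gave 1 higher and 6 lower. From E18.5 to adult 3 were higher (Bmi1, Cbx7 and Phc1) and 4 lower, among them Ezh2 and Men1. These counts stood against 21.4% higher and 23.6% lower of all genes. On library size alone 1 was higher and 9 were lower, again with the typical gene lower. Cbx7, a Polycomb chromodomain protein, was at 0.158 scaled FPKM at E18.5, 0.165 at PN2, 1.80 and 1.01 at PN14, 2.59 at PN28 and 7.67 at 22 weeks, a log2 fold change from E18.5 to adult of 5.58 (SE 0.524, adjusted p = 0.00133). Ezh2, the Polycomb methyltransferase, was at 9.13 at PN2, 4.03 and 4.96 at PN14 and 2.56 in the adult, with a log2 fold change from E18.5 to adult of -1.97 (SE 0.248, adjusted p = 0.00224). Kmt2a, the Trithorax methyltransferase, was at 3.84 and 4.47 and was not called (adjusted p = 0.395), with its direction turning to -0.81 on library size alone.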

How the data were processed

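Per the labels, polyadenylated RNA was sequenced, and the authors used TopHat2 2.0.5 for alignment (mm9) and RSEM for counting per gene. The deposited expected counts are not normalized, and all were whole numbers. The deposited FPKM values are scaled by gene length and library total, given to 2 decimals. Whether the libraries kept strand is not given in the sources used here.

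The expected counts, rounded, were fitted with edgeR 4.0.16 in R 4.3.3 (TMM, filterByExpr by stage, quasi-likelihood test, all 6 libraries and 5 stages in one fit, 1 residual degree of freedom, common biological coefficient of variation 0.188). The p-values were adjusted over all 16882 genes tested with the Benjamini-Hochberg method. Size alone was taken from log2 of TMM-normalized CPM plus 0.1. The SE of a log2 fold change was its size divided by the square root of the test's F. Annotation and sequences came from GENCODE M1 on mm9, read with Biopython 1.88. The quasi-likelihood test was tried on simulated data for PN2 to PN14 only, with changes set in genes above 1 CPM. That trial does not cover the other tests or members with low counts. Alternatives were library size alone, DESeq2's size factors and Wald test (DESeq2 1.42.0), edgeR's exact test, other filters, floors and pseudocounts, and either PN14 replicate left out.

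Members, gene lists and tests were chosen with earlier results of these data known. Members named with values are those with at least 1 FPKM in a library or called in a comparison. Some genes of the other lists are counted but not reported by name here. Whether the PN14 replicates vary as other stages do cannot be tested, so p-values rest on the spread between 2 mice.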

Additional observations from a re-analysis of the deposited data

How the results depend on the processing

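The scaling between libraries mattered most. On library size alone the calls were 1 (E18.5 to PN2), 6 (PN2 to PN14) and 14 (E18.5 to adult), and the 2-fold counts without a test were 4 between PN2 and PN14 (1 higher, 3 lower) and 2 between PN14 and PN28. Among the members given with values, the log2 fold change then changed sign from PN2 to PN14 for Hoxa3 (-0.13), Hoxa4 (-0.34), Hoxa7 (-0.61), Hoxa9 (-0.46), Hoxa10 (-0.47), Hoxb7 (-0.35) and Hoxc11 (-0.26). From E18.5 to adult it did so for Hoxa3 (-0.36), Hoxa4 (-0.43), Hoxa5 (-0.94), Hoxa7 (-0.97), Hoxa9 (-0.86), Hoxc5 (-0.25) and Hoxc11 (-0.97). Of the lower members, Hoxa6, Hoxb2, Hoxb8 and Hoxc8 also changed sign from PN2 to PN14. From E18.5 to adult Hoxa2, Hoxa6, Hoxb3, Hoxb5, Hoxc8 and Hoxd3 did. With a filter at a mean of 1 CPM the sign changed, among the members given with values, for Hoxa7 (-0.01 and -0.02) and for Hoxc11 from E18.5 to adult (-0.02). The calls from PN2 to PN14 were then 4, of 23 members tested. For that comparison DESeq2's Wald test called 5 and edgeR's exact test 13, and from E18.5 to PN2 the exact test called 1. DESeq2's size factors changed no call of a named gene in these comparisons.

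A floor of 10 CPM left 2-fold counts of 0 (E18.5 to PN2), 2 (PN2 to PN14), 0 (PN14 to PN28), 0 (PN28 to adult) and 3 (E18.5 to adult), and a pseudocount of 1 CPM gave 4 between PN2 and PN14 and 0 between PN14 and PN28. Without 1 PN14 replicate the count from PN14 to PN28 ranged from 0 to 4. The share of groups 9 to 13 taken from counts was 71.9% at E18.5, 67.6% at PN2, 66.4% at PN14, 73.3% at PN28 and 78.7% at 22 weeks. Without Hoxc10, an alternative chosen after seeing the data, it was 59.7%, 53.6%, 48.5%, 53.3% and 55.6%, and without overlapping genes 66.1% at PN14. The cause of these shifts was not tested. The test could not be run without a PN14 replicate, since no residual degree of freedom would remain. No paired analysis was possible because only PN14 has replicates. Members under 3 counts were limited by depth.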
